A study of Mus musculus with 9 samples.

Results

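Opposite-strand genes are transcription units that mouse gene nomenclature names after a known gene on the other DNA strand, by adding "os" and sometimes a digit to that gene's symbol. Rows of the deposited count table were taken when their symbol ended in this way and the symbol without the ending was also in the table, and 303 of the 55471 rows met this condition. The 70 genes described here were those with at least 10 counts in at least 3 of the 9 libraries, and they faced 67 different sense partners. Of the remaining candidates, 130 had no count in any library. The partner was used as a reference for each gene: what changed beside it, in which direction and by how much.

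The RNA came from dendritic cells (DCs) grown from the bone marrow of wild-type female C57BL/6 mice with GM-CSF, a growth factor that drives myeloid cells toward DCs in culture. Cells of the same kind were left unstimulated, activated with LPS, a component of bacterial outer membranes that engages a Toll-like receptor, or treated with IFN-β, a type I interferon made in antiviral responses. Each of the 3 groups had 3 libraries of ribosome-depleted total RNA, all harvested after 6 h and lettered A, B and C. The cultures are a mixture by origin, since GM-CSF cultures of marrow are known to hold macrophage-like cells beside DCs.

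Transcripts from the strand opposite a gene are of several kinds. Some start back to back with the gene and leave from the same open promoter, some run through the gene's exons and introns in the antisense direction, and some lie apart from it and share only a name. Such RNAs are usually scarce and noncoding, and a few, such as the lincRNA-Cox2 transcript beside *Ptgs2*, have known roles in the inflammatory response of myeloid cells.

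The sequences shown for the changes described first below lie at the *Ptgs2* and *Il1b* loci, taken from RefSeq on the build GRCm38.p6. *Ptgs2os* and *Ptgs2* start on opposite strands 68 bases apart in the GENCODE annotation, so that the stretch between them lies upstream of both genes. The sequence before *Ptgs2* (chr1:150099781-150100030, plus strand) is shown with the 67 bases between those starts in capitals. RefSeq puts the start of *Ptgs2os* further inside the same window. The sequence before *Ptgs2os2* (chr1:150164949-150165198, minus strand) holds in capitals the only match to the interferon-stimulated response element GAAANNGAA among the windows shown, read on the other strand and beginning 72 bases before the start. The sequence before *Il1b* (chr2:129371140-129371389, minus strand) holds in capitals a TATA box, TATAAA, which begins 31 bases before the start.
Ptgs2: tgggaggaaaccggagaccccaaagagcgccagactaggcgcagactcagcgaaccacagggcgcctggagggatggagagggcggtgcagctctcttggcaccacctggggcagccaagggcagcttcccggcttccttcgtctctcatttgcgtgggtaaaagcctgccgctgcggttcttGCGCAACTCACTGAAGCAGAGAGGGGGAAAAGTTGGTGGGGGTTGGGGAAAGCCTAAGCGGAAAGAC
Ptgs2os2: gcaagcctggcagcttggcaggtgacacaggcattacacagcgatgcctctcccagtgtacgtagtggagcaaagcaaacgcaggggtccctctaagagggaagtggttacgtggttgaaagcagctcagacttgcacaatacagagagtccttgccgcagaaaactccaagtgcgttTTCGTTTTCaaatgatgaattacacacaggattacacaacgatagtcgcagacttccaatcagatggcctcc
Il1b: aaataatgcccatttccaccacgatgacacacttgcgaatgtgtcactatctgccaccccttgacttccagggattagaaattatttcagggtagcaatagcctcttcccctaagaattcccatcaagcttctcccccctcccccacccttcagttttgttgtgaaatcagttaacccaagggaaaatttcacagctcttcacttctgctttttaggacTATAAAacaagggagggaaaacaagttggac

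The libraries held between 33425803 and 43735199 counts on genes. All 7 DC markers examined reached 1 CPM (the gene's counts scaled to a common library size), and their summed level was 4340 to 5190 CPM in unstimulated DCs, 6100 to 6750 CPM in LPS-activated DCs and 4860 to 5150 CPM in IFN-β-treated DCs. The 6 macrophage or monocyte markers summed to 1520 to 1880, 2540 to 3110 and 2150 to 2470 CPM in the same groups, and the part of this shift in the changes below was not tested. Within this list *Csf1r* went the other way with LPS, from a mean of 1100 to 562 CPM, while *Cd14* went from 75.8 to 700 CPM. Of the 6 neutrophil or precursor markers 3 reached 1 CPM in some library, with a summed level of 8.82 to 22.5 CPM over the 9 libraries, and none of the B cell, T cell, mast cell or erythroid markers did. The stimuli were visible in the known response genes, *Il12b* with a mean of 3.41 CPM in unstimulated and 3620 CPM in LPS-activated DCs, and *Ifit1* with 25.9, 2290 and 788 CPM in unstimulated, LPS-activated and IFN-β-treated DCs.

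All 70 genes lay on the strand opposite their partner, and all partners were protein coding. The annotation classed 54 of the 70 as antisense, 6 as processed transcripts, 4 as lincRNA, 1 as a bidirectional promoter lncRNA and 5 as protein coding, so that the name does not mark a noncoding RNA in every case. The 5 coding genes were *Slc7a6os*, *Wdr83os*, *Cebpzos*, *Ccpg1os* and *Cdiptos*. The pairs overlapped head to head in 25 cases and tail to tail in 9. The opposite-strand gene lay inside its partner in 16 cases and around it in 3, and the genes stood apart in 12 divergent and 5 convergent pairs. Start sites were within 500 bases of each other in 22 pairs and within 1000 bases in 29. Exon bases were shared with the partner by 47 genes and by none of the other 23.

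The counting had kept the strands apart. Of 190 genes that lie wholly within the exons of an opposite-strand gene with at least 1000 counts, 152 had counts, which a count without strand would have discarded as ambiguous. Strandedness is not perfect in such libraries, and for 7 genes covered by a gene with at least 100000 counts the level per exon base was 0.008% to 1.79% of that of the covering gene. *H3f3aos*, *Hopxos*, *Il1bos*, *Plet1os* and *Slfn5os* shared exon bases with their partner and lay at or below 1.79% of its level in all 3 groups, so reads from the wrong strand of the partner cannot be told apart from their own RNA by level alone. *Zfhx2os* shared 63.0% of its exon bases with another gene on its own strand, and its counts are uncertain for that reason.

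The opposite-strand genes were scarce. Their median level over the 9 libraries was 0.822 CPM, against 24.1 CPM for their partners and 9.68 CPM for all tested genes. Per base of exon in unstimulated DCs, 52 genes lay below and 16 above their partner, 2 partners had no count there, and the median was 13.9% of the partner. The 3 highest per kb of exon were *Wdr83os*, which encodes a small protein of the endoplasmic reticulum membrane, at 17.9 CPM per kb, *Oip5os1*, the lncRNA also known as Cyrano, at 14.3 CPM per kb, and *Brip1os* at 7.32 CPM per kb. *Oip5os1* lies apart from *Oip5*, a centromere gene, and stood at 1480% of its level per exon base. *Brip1os* starts 177 bases from *Brip1*, a DNA helicase gene, and stood at 520%. At the other end were *Slfn5os* at 0.149%, *Il1bos* at 0.267% and *Ptgs2os* with no count.

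**Figure D1:**
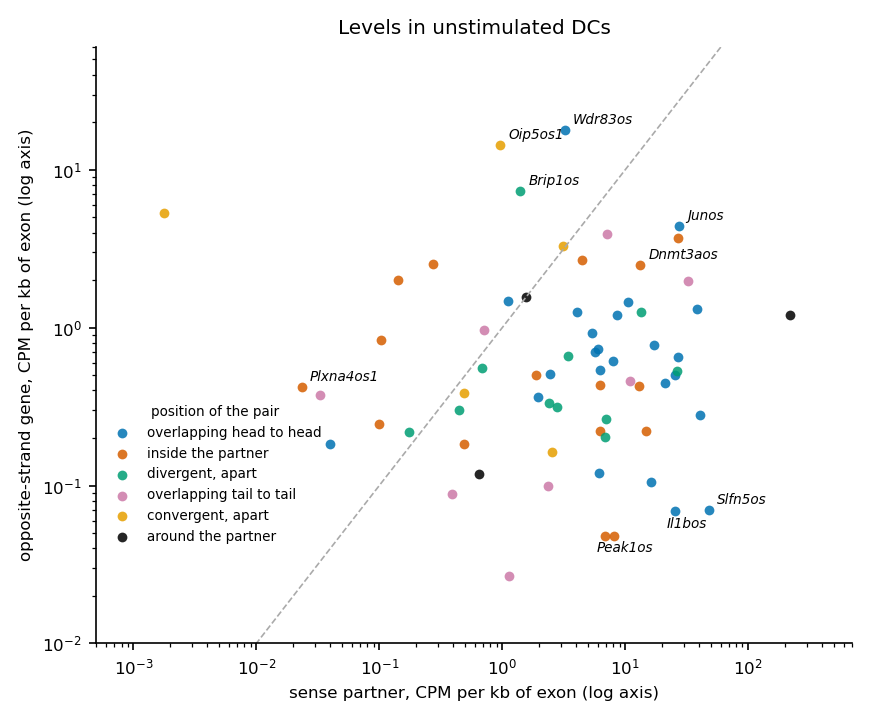
Mean level in unstimulated DCs of each opposite-strand gene (vertical axis) against its sense partner (horizontal axis), both as CPM per kb of exon on log axes, with points coloured by the position of the pair and the dashed line marking equal levels and *Ctcflos*, *Lrrc55os* (partners without counts) and *Ptgs2os* (without counts itself) not drawn. Most points lie below the line, and *Wdr83os*, *Oip5os1* and *Brip1os* lie above it at the highest levels.

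At the edge of the rule, *Ttc39aos1*, *Etaa1os* and *Ptgs2os* reached 10 counts in exactly 3 libraries, and *Adap2os*, *Crxos*, *Mettl5os* and *Taco1os* reached them in 2 and were left out. *Etaa1os* had 6, 20 and 11 counts in unstimulated, 5, 9 and 6 in LPS-activated and 12, 9 and 6 in IFN-β-treated DCs. *Adap2os*, *Mettl5os* and *Taco1os* had at most 12, 11 and 14 counts in any library. Among the 70, *Anxa11os*, *Ctcflos*, *Lrrc55os*, *Peak1os*, *Ptgs2os*, *Slfn5os* and *Zfhx2os* reached 10 counts in stimulated libraries only, and *Ttc39aos1* in unstimulated libraries only. These 8 genes entered through the groups in which they were high, so their differences from unstimulated DCs are given below as a description, without a p. *Bach2os*, *Hectd2os* and *Rsf1os2* met the rule only with their unstimulated libraries counted, and *Bloc1s6os* only with its LPS libraries. Their differences from those groups are a description too, and any p printed for them does not allow for the rule. They remain in the counts below that leave out the 8 genes. *Erich2os*, left out with 1 such library, had no count in unstimulated or IFN-β-treated DCs and 8, 9 and 10 counts in the LPS libraries. *Crxos* had 2, 5 and 2 counts in unstimulated, 8, 14 and 13 in LPS-activated and 5, 4 and 5 in IFN-β-treated DCs.

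LPS against unstimulated DCs was the first comparison. Of the 70 genes, 31 passed edgeR's test, 16 higher and 15 lower with LPS, which is 44.3% where 68.2% of all 16260 tested genes passed, 32.8% higher and 35.4% lower. Without the 8 genes that entered through the groups in which they were high, 23 of 62 passed, 9 higher and 14 lower. The median log2 fold change of the 70 was -0.37, against -0.04 for all tested genes. Counts were low in most of them, with a mean under 100 in every group for 54 genes. Of these 54, 20 passed, while 48.0% of the 4714 tested genes with equally low counts did. The 20 include all of the 8 genes except *Ptgs2os*, so this share is a description. Of their 62 tested partners, 42 passed (67.7%). With counts scaled by library size only, which moved the median of all genes by -0.58, the split became 13 higher and 46 lower. In RNA from whole cultures, fewer cells of a type and less RNA per cell cannot be told apart.

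The *Ptgs2* locus holds a pair of these genes. *Ptgs2* encodes cyclooxygenase 2, the inducible enzyme of prostaglandin synthesis, and its level went from 2.25 ± 0.477 CPM (SD, n = 3) to 3080 ± 221 CPM, a log2 fold change of 10.42 (SE 0.21). *Ptgs2os* (chr1:150074873-150099963, minus strand) had no count in the 3 unstimulated libraries, 151, 223 and 221 counts in the LPS libraries A, B and C, and 1 count in each IFN-β library. It was at least 88.3-fold higher in LPS-activated than in unstimulated DCs, taking 3 counts in each unstimulated library as the smallest amount that would have been seen. It thus appeared beside *Ptgs2* on the other side of the promoter stretch printed above, at 0.214% of its level per exon base in LPS-activated DCs.

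*Ptgs2os2* (chr1:150159043-150164948, minus strand), the lincRNA-Cox2 gene, starts 64917 bases from *Ptgs2*. It had 26, 31 and 29 counts in unstimulated, 788, 875 and 661 in LPS-activated and 59, 44 and 37 in IFN-β-treated DCs. Every LPS library lay above every other library, with a log2 fold change of 5.19 (SE 0.16, edgeR adjusted p = 3.1e-09). Because *Ptgs2* changed by far more, the ratio of *Ptgs2os2* to *Ptgs2* fell by 5.27 on the log2 scale (SE 0.17, limma adjusted p = 1.8e-09), and the lncRNA went from 78.6% to 2.08% of the level of *Ptgs2* per exon base.

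*Il1bos* (chr2:129369897-129375748, plus strand) starts within *Il1b*, the gene of the cytokine interleukin-1β, and shares 0.8% of its exon bases with it. It had 10, 9 and 7 counts in unstimulated, 614, 780 and 714 in LPS-activated and 14, 6 and 17 with IFN-β. The LPS libraries stood far above both other groups, which overlapped. Its log2 fold change with LPS was 6.75 (SE 0.22, edgeR adjusted p = 3.7e-09), beside 7.14 (SE 0.39) for *Il1b*, and the change of their ratio, -0.48 (SE 0.43, limma adjusted p = 0.357), did not pass. *Il1bos* stood at 0.209% to 0.318% of *Il1b* per exon base in the 3 groups, in the range of the covered genes above, and the part of wrong-strand reads in its rise was not tested.

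*Slfn5os* overlaps *Slfn5*, an interferon-induced gene of the Schlafen family. It had 2, 5 and 3 counts in unstimulated, 20, 15 and 25 in LPS-activated and 15, 12 and 12 in IFN-β-treated DCs, and neither stimulated group overlapped the unstimulated one. Its log2 fold change with LPS was 2.97 (SE 0.38) beside 2.95 (SE 0.25) for *Slfn5*, and the ratio change was -0.13 (SE 0.44, limma adjusted p = 0.811). *Slfn5os* shares 50.7% of its exon bases with *Slfn5* and stood at 0.111% to 0.154% of its level per exon base, and the part of wrong-strand reads in its increase was not tested.

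**Figure D2:**
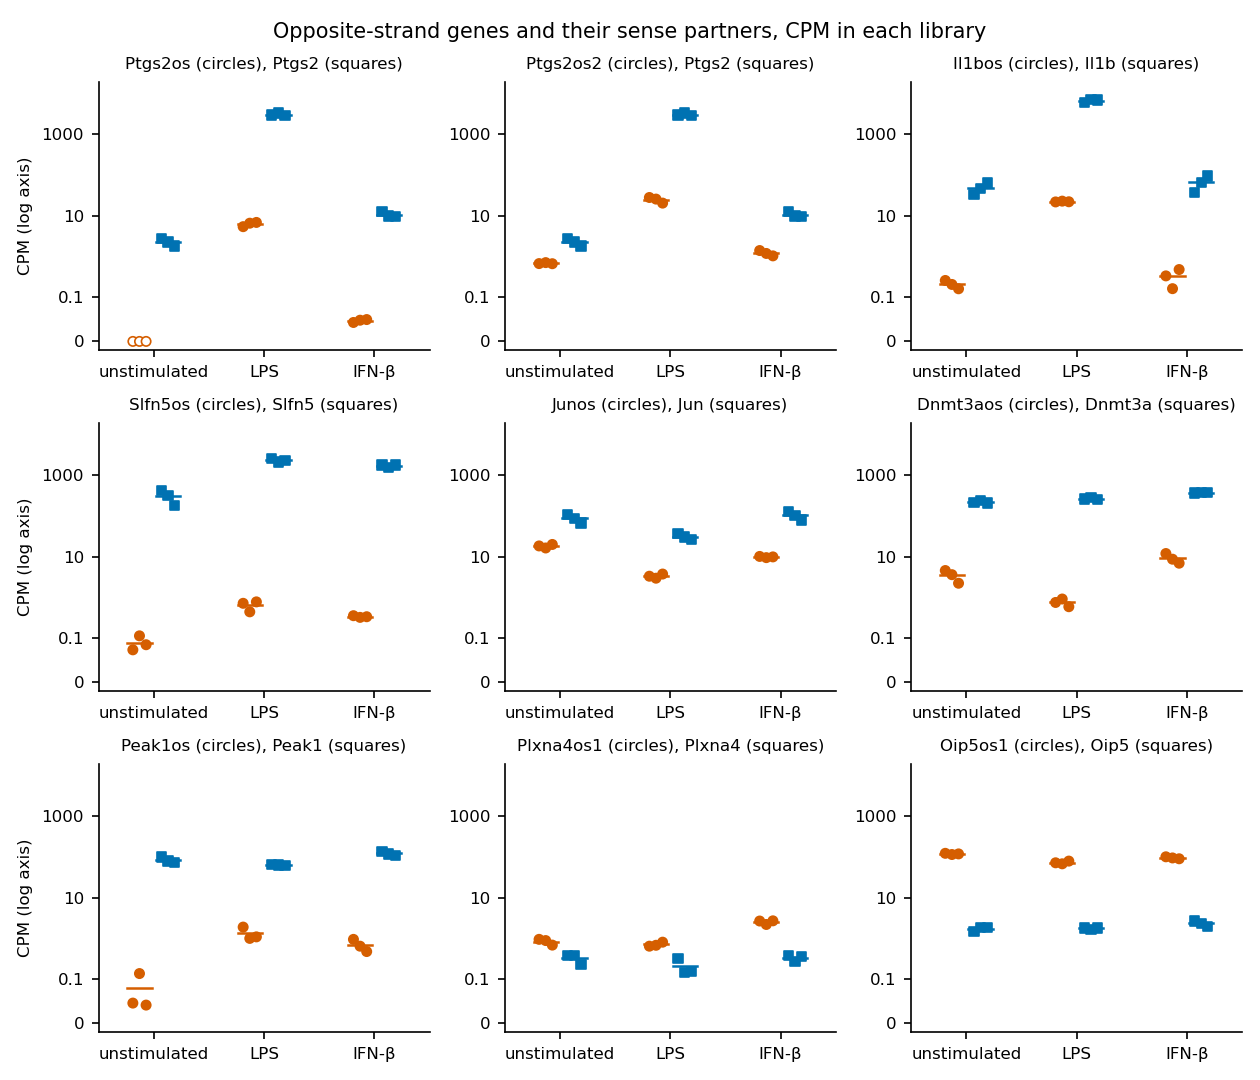
CPM in each library (log axis, with libraries without counts drawn as open symbols at the tick 0) for 9 opposite-strand genes, circles, and their sense partners, squares, in unstimulated, LPS-activated and IFN-β-treated DCs, with libraries A, B and C from left to right and bars at the means. *Ptgs2os*, *Ptgs2os2* and *Il1bos* are highest in the LPS libraries, *Dnmt3aos* is lowest with LPS and highest with IFN-β, and *Peak1os* is higher with both stimuli while *Peak1* moves by less.

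*Peak1os* (chr9:56257890-56267780, plus strand) lies inside *Peak1*, which encodes a pseudokinase of the cytoskeleton. It had 1, 6 and 1 counts in unstimulated, 53, 34 and 35 in LPS-activated and 40, 24 and 17 in IFN-β-treated DCs, so that both stimulated groups stood clear of the unstimulated one. Its log2 fold change with LPS was 4.32 (SE 0.54), while *Peak1* fell by 0.42 on the log2 scale (SE 0.12). The log2 change of their ratio was 4.89 (SE 0.53).

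*Anxa11os*, inside *Anxa11*, a gene of a phospholipid-binding annexin, had 6, 5 and 4 counts in unstimulated and 22, 17 and 33 in LPS-activated DCs. Its log2 fold change was 2.66 (SE 0.44) beside 0.32 (SE 0.09) for *Anxa11*, whose direction turned to -0.26 with library size only, and the change of the ratio, which does not depend on scaling, was 2.24 (SE 0.39). *Arhgap27os3*, inside *Arhgap27*, had 23, 24 and 30 counts in unstimulated and 39, 58 and 42 in LPS-activated DCs. It rose by 1.27 (log2, SE 0.21) while *Arhgap27* fell by 1.07 on the log2 scale (SE 0.14). The other genes opposite *Arhgap27*, *Arhgap27os1* and *Arhgap27os2*, gave log2 fold changes of -0.51 and -0.77 that did not pass.

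*Hk1os* and *Zeb2os* rose together with their partners, and *Zfhx2os* was higher beside a partner that rose. *Zfhx2os* had 7, 6 and 2 counts in unstimulated and 33, 33 and 23 in LPS-activated DCs, a log2 fold change of 2.97 (SE 0.38) beside 0.92 (SE 0.13) for the transcription factor gene *Zfhx2*. *Hk1os*, inside the hexokinase gene *Hk1* of the first step of glycolysis, had 34, 25 and 26 counts in unstimulated and 59, 65 and 51 in LPS-activated DCs. It rose by 1.47 (log2, SE 0.22) beside 0.84 (SE 0.09) for *Hk1*. The ratio change of *Hk1os* to *Hk1*, 0.64 (SE 0.22, limma adjusted p = 0.0232), did not pass without unstimulated library B (0.53) or C (0.59) or LPS library A (0.60). *Zeb2os*, inside the gene of a transcription factor of DC and monocyte development, had 284, 330 and 328 counts in unstimulated and 442, 461 and 401 in LPS-activated DCs and rose by 0.91 (log2, SE 0.09) beside 0.48 (SE 0.08) for *Zeb2*. Library size only moved the median of all genes by -0.58, which is more than this rise of *Zeb2*.

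The 15 genes lower with LPS included *Junos*, *Dnmt3aos*, *Bach2os* and *Tnfsf13os*. *Junos* (chr4:95051534-95167318, plus strand) starts 688 bases from the start of *Jun* and overlaps it head to head. *Jun* encodes a subunit of the transcription factor AP-1. *Junos* had 724, 725 and 881 counts in unstimulated, 93, 101 and 121 in LPS-activated and 430, 355 and 356 in IFN-β-treated DCs. No library of a group overlapped another group. *Junos* fell by 2.45 on the log2 scale (SE 0.11, edgeR adjusted p = 2.2e-08), *Jun* by 1.50 (SE 0.21), and their ratio by 0.96 (SE 0.24, limma adjusted p = 0.00525).

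*Dnmt3aos* (chr12:3859293-3862244, minus strand) lies inside *Dnmt3a*, the gene of a de novo DNA methyltransferase, and had 179, 160 and 98 counts in unstimulated, 21, 31 and 19 in LPS-activated and 510, 325 and 249 in IFN-β-treated DCs. It fell with LPS by 2.20 on the log2 scale (SE 0.33, edgeR adjusted p = 1.4e-04). *Dnmt3a* itself rose by 0.28 (SE 0.07), which turned to -0.30 with library size only, and the ratio fell by 2.43 (SE 0.26, limma adjusted p = 1.2e-05). The opposite-strand gene thus went from 18.6% to 3.33% of the level of *Dnmt3a* per exon base.

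*Tnfsf13os* fell together with its partner, and *Bach2os* and *Ttc39aos1* were lower beside partners that fell. The latter are a description, since *Bach2os* met the rule only with its unstimulated libraries and *Ttc39aos1* entered through them. *Bach2os*, inside the gene of the transcriptional repressor BACH2, had 23, 27 and 19 counts in unstimulated and 2, 0 and 2 in LPS-activated DCs, a log2 fold change of -3.57 (SE 0.55) beside -2.10 (SE 0.48) for *Bach2*. *Ttc39aos1*, which starts 468 bases from *Ttc39a*, had 21, 20 and 20 counts in unstimulated and 2, 0 and 2 in LPS-activated DCs, a log2 fold change of -3.40 (SE 0.61) beside -2.26 (SE 0.19). *Tnfsf13os*, around the gene of the B cell survival cytokine APRIL, had 75, 93 and 55 counts in unstimulated and 8, 12 and 5 in LPS-activated DCs, a log2 fold change of -2.71 (SE 0.34) beside -1.61 (SE 0.22) for *Tnfsf13*. The ratio to the partner passed for *Tnfsf13os*, where it fell by 1.10 (SE 0.27, limma adjusted p = 0.00395), and not for *Bach2os* (adjusted p = 0.261). *Tmem147os*, which starts 39 bases from *Tmem147*, had 76, 77 and 76 counts in unstimulated and 8, 28 and 12 in LPS-activated DCs, a log2 fold change of -1.84 (SE 0.35) beside -1.28 (SE 0.10) for *Tmem147*.

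The most abundant of the genes per kb included *Oip5os1*, *Wdr83os* and *Brip1os*. *Oip5os1* fell with LPS by 0.70 on the log2 scale (SE 0.07, edgeR adjusted p = 7.5e-06), from 119 ± 3.71 to 73.0 ± 5.73 CPM (SD, n = 3), without a change of *Oip5* that passed (0.02, SE 0.17). *Wdr83os* stayed within its replicate spread, at 18.4 ± 0.394 and 17.7 ± 1.04 CPM (log2 fold change -0.05, SE 0.09), while *Wdr83* fell by 0.94 on the log2 scale (SE 0.09) and the ratio rose by 0.89 (SE 0.12). *Brip1os* went from 47.5 ± 1.61 to 64.0 ± 5.38 CPM, a log2 fold change of 0.43 (SE 0.07) that turned to -0.16 with library size only. *Slc7a6os* (-0.04, SE 0.10) and *Pigbos1*, known to encode a mitochondrial microprotein (-0.17, SE 0.10), did not pass, although every LPS library of *Pigbos1* lay below every unstimulated one, beside partners that fell by 0.72 and 1.15 on the log2 scale.

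Where the genes lay relative to their partners, the counts called with LPS were 7 of 25 for head-to-head overlap (4 higher, 3 lower), 8 of 16 inside the partner (5 higher, 3 lower) and 7 of 12 for divergent genes standing apart (3 higher, 4 lower). They were 5 of 9 for tail-to-tail overlap (3 higher, 2 lower), 3 of 5 for convergent genes and 1 of 3 for genes around the partner. These counts are a description, to be set beside the 44.3% of the 70 genes and the 68.2% of all tested genes, and no difference between positions was tested. Of the 31 called genes, 30 had LPS libraries that did not overlap the unstimulated ones, the exception being *Slc36a3os* with 8, 26 and 23 counts in unstimulated and 8, 4 and 0 in LPS-activated DCs.

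Each change was then set beside that of the sense partner, in the 65 pairs with both genes tested. With LPS, both genes passed in the same direction in 16 pairs (24.6%, where 31.0% of 12417 pairs of genes and their nearest opposite-strand neighbours did) and in opposite directions in 6 (9.23%, where 17.7% did). The 16 include *Anxa11os*, *Ptgs2os*, *Slfn5os*, *Zfhx2os* and *Ttc39aos1*, which entered through the groups in which they were high. *Bach2os* and *Bloc1s6os*, under the limit of the rule given above, are among them too. The count and the correlations below are therefore a description. The log2 fold changes of gene and partner had a Pearson r of 0.82 and a Spearman coefficient of 0.54 over the 65 pairs, which share libraries and, for *Ptgs2* and *Arhgap27*, partners. This r uses the fitted change of *Ptgs2os*, which had no unstimulated count. With that gene at its lower bound, r was 0.79. Without the 3 pairs of *Ptgs2* and *Il1b*, r was 0.53 and the Spearman coefficient 0.47 over 62 pairs. The same values over all 12417 pairs were 0.27 and 0.24, and over the 1517 pairs with start sites within 1000 bases 0.61 and 0.53. Of those 1517 pairs, 37.6% passed in the same direction and 9.23% in opposite directions.

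The 6 pairs that went opposite ways with LPS were *Peak1os*, *Arhgap27os3*, *Dnmt3aos*, *Hectd2os*, *Brip1os* and *Ino80dos* with their partners. *Peak1os* entered through the stimulated groups, so its pair is a description. *Hectd2os* met the rule only with its unstimulated libraries, so its pair is a description too. A block for the replicate letters made the count of such pairs 7, adding *Rsf1os2* (-1.50, edgeR adjusted p = 0.0393) against *Rsf1* (0.53). The pair of *Rsf1os2* is likewise a description, since this gene met the rule only with its unstimulated libraries. With that block, both genes passed in the same direction in 18 pairs. *Hectd2os* had 17, 17 and 11 counts in unstimulated and 3, 4 and 3 in LPS-activated DCs and fell by 1.71 on the log2 scale (SE 0.49), while the ubiquitin ligase gene *Hectd2* rose by 0.66 (SE 0.17). *Ino80dos* went from 2.03 ± 0.139 to 1.51 ± 0.228 CPM (SD, n = 3), a log2 fold change of -0.43 (SE 0.17, edgeR adjusted p = 0.0479) beside 0.88 (SE 0.06) for *Ino80d*, a subunit of a chromatin remodelling complex. The call of *Ino80dos* was lost when any of the 9 libraries was left out, with log2 fold changes from -0.49 to -0.30, but its ratio to *Ino80d* fell by 1.31 (SE 0.18, limma adjusted p = 8.6e-05). The fall of *Brip1*, -0.35 (SE 0.11), did not pass without unstimulated library C (-0.26, adjusted p = 0.075). With library size only, *Brip1os* (-0.16) and *Dnmt3a* (-0.30) turned to the direction of the other gene of their pair.

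**Figure D3:**
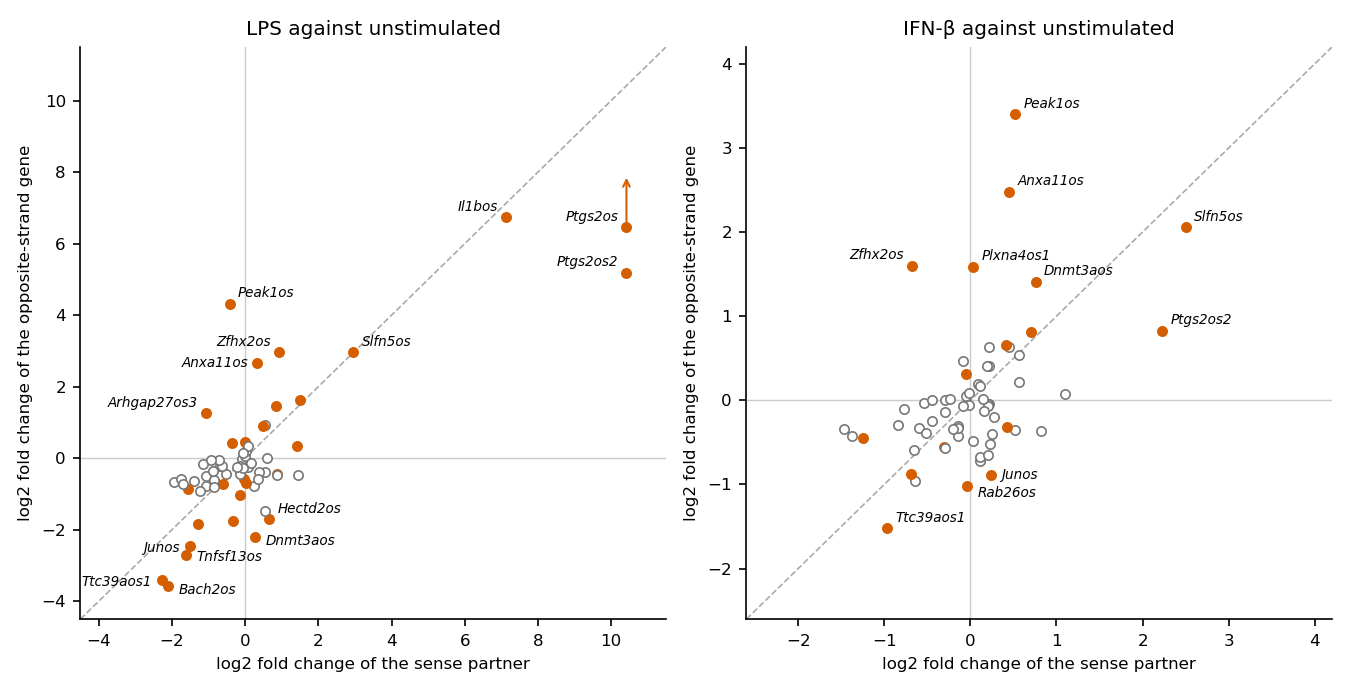
Log2 fold change of each opposite-strand gene (vertical axis) against that of its sense partner (horizontal axis), with LPS on the left and with IFN-β on the right, where filled points are genes past edgeR's test and the dashed line marks equal change, with *Ptgs2os* at its lower bound of 6.46 with LPS (arrow) and not drawn with IFN-β, where it had 1 count in each library. *Il1bos* and *Slfn5os* lie near the line, *Peak1os* and *Anxa11os* above it in both panels.

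The ratio of the opposite-strand gene to its partner within each library measures the difference directly. It changed with LPS in 29 of the 65 pairs by limma, 15 higher and 14 lower, where 63.2% of the 12417 pairs changed. Blocking on the replicate letters gave 32, 15 higher and 17 lower. Ratio changes ran from -5.27 for *Ptgs2os2* to 4.89 for *Peak1os*. Among the 15 higher, *Peak1os*, *Anxa11os* and *Zfhx2os* entered through the stimulated groups, so their ratio changes are a description. Among the 14 lower, those of *Hectd2os* and *Rsf1os2* are a description too, as both genes met the rule only with their unstimulated libraries. The libraries of both groups did not overlap in 28 of the 29, although 3 libraries against 3 can give no exact permutation p below 0.1 for any pair. Besides the pairs above, *Lrrc75aos2* gave -1.88 (SE 0.30, limma adjusted p = 2.3e-04), through a rise of *Lrrc75a* by 1.44 (log2, SE 0.15) beside -0.46 (SE 0.23) for *Lrrc75aos2*, which did not pass. *Rab26os* gave -1.40 (SE 0.43), which did not pass without unstimulated library C (-1.23), and *Rsf1os2* -2.28 (SE 0.72), which did not pass without LPS library A (-1.70). *Rsf1os2* itself, with 18, 17 and 14 against 1, 3 and 9 counts, had a log2 fold change of -1.47 (SE 0.66, adjusted p = 0.0705, and 0.0393 with a block for the replicate letters). The value for *Ptgs2os*, -1.38, rests on the 0.5 counts added to its empty unstimulated libraries and became -3.35 with 2 counts added, so its direction is not read. Without *Ptgs2os*, 28 pairs passed, 13 of them lower.

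**Figure D4:**
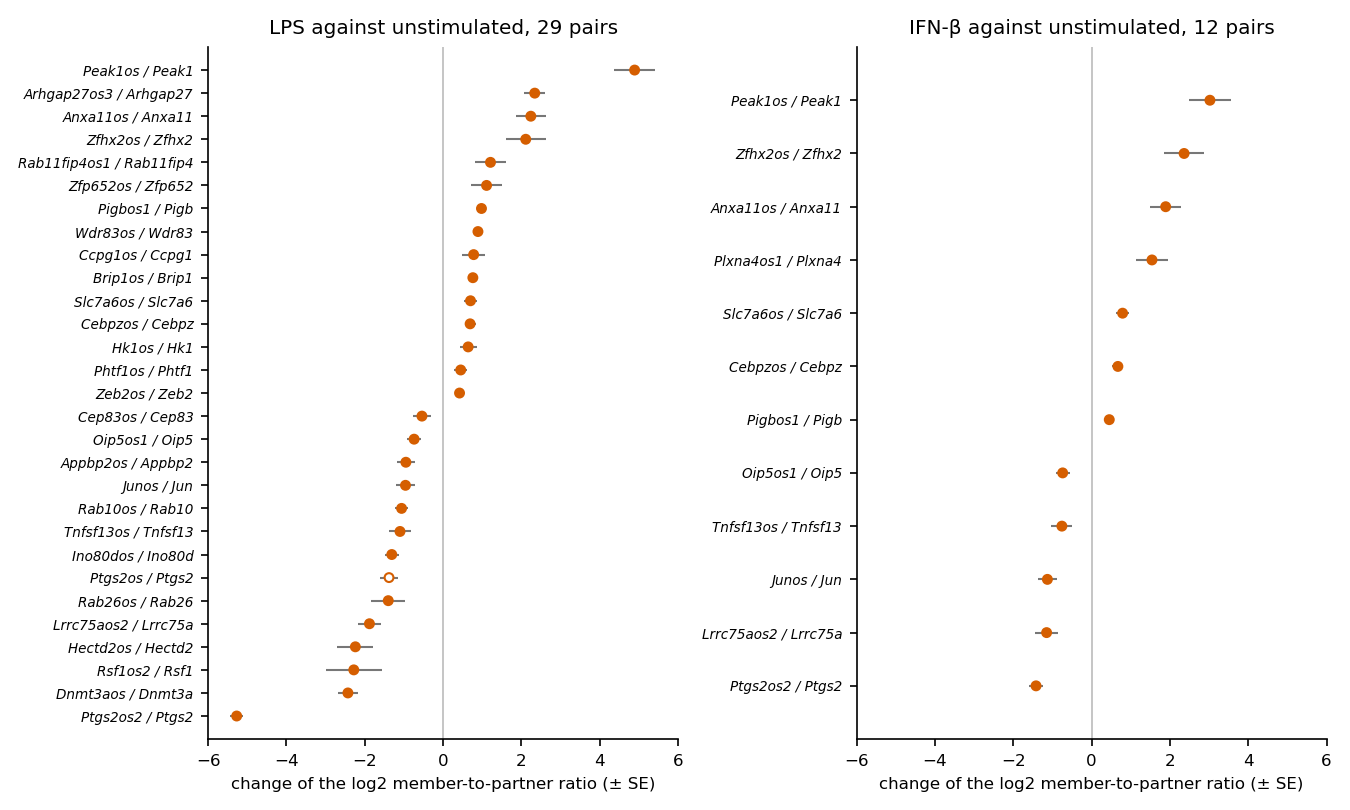
Change of the log2 ratio of the opposite-strand gene to its sense partner, with its standard error, for the pairs past limma's test with LPS (left) and with IFN-β (right), the open point being *Ptgs2os*, whose value depends on the pseudocount. *Peak1os* stands highest and *Ptgs2os2* lowest in both panels.

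IFN-β against unstimulated DCs was the next comparison, and it shares its unstimulated libraries with the LPS comparison. Of the 70 genes, 20 passed, 12 higher and 8 lower, which is 28.6% where 46.9% of all tested genes passed, 23.6% higher and 23.3% lower. The median log2 fold change was -0.07, against -0.02 for all tested genes, and 12 of the 54 genes with low counts passed, where 22.4% of equally low genes did. Without the 8 genes that entered through the groups in which they were high, 13 of 62 passed, 6 higher and 7 lower. All of the 8 except *Ptgs2os* were among the 12 that passed with low counts, so that share is a description. Library size only, which moved the median of all genes by -0.31, gave 10 higher and 23 lower. All 20 had IFN-β libraries that did not overlap the unstimulated ones.

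*Lrrc55os*, *Peak1os*, *Ctcflos*, *Anxa11os* and *Slfn5os*, which all entered through the stimulated groups, were higher with IFN-β. *Lrrc55os* (chr2:85160778-85193325, plus strand) lies opposite *Lrrc55*, a potassium channel subunit gene with 1 count over the 9 libraries together, and had 0, 0 and 1 counts in unstimulated, 29, 12 and 16 in LPS-activated and 22, 15 and 19 in IFN-β-treated DCs. With 1 count in the unstimulated group, the ratio of levels was 61.6 with IFN-β (95% exact interval 10.6 to 2480) and 76.9 with LPS (13.3 to 3090), for counting error only. Both stimulated groups lay clear of the unstimulated one.

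*Peak1os* had a log2 fold change of 3.40 with IFN-β (SE 0.58) beside 0.52 (SE 0.12) for *Peak1*, and a ratio change of 3.02 (SE 0.53). *Ctcflos* had 5, 2 and 4 counts in unstimulated, 9, 13 and 16 in LPS-activated and 24, 23 and 24 in IFN-β-treated DCs, a log2 fold change of 2.78 (SE 0.35), while its partner *Ctcfl*, a germline relative of the insulator protein gene *Ctcf*, was too low to test. *Anxa11os* had a log2 fold change of 2.48 (SE 0.43) beside 0.45 (SE 0.09) for *Anxa11*. *Slfn5os* had 2.06 (SE 0.41) beside 2.50 (SE 0.25) for *Slfn5*, under the same limit of strand as above.

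*Plxna4os1* and *Dnmt3aos* were higher with IFN-β only. *Plxna4os1*, inside the semaphorin receptor gene *Plxna4*, had 37, 39 and 30 counts in unstimulated, 18, 23 and 26 in LPS-activated and 113, 82 and 97 in IFN-β-treated DCs. It rose with IFN-β by 1.59 (log2, SE 0.19, edgeR adjusted p = 7.4e-05), its LPS change of -0.23 (SE 0.22) did not pass, and the direct difference of 1.83 (SE 0.20, adjusted p = 2.9e-05) did. *Plxna4* was at 0.329 ± 0.0897 and 0.333 ± 0.059 CPM (SD, n = 3) in unstimulated and IFN-β-treated DCs, and the ratio rose by 1.54 (SE 0.40, limma adjusted p = 0.0111). *Dnmt3aos* rose by 1.41 (SE 0.26, edgeR adjusted p = 0.00134) beside 0.76 (SE 0.07) for *Dnmt3a*, and the ratio change of 0.67 (SE 0.26) passed with the replicate letters as a block (limma adjusted p = 0.00321) and not without (0.0679).

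*Zfhx2os* had a log2 fold change of 1.60 with IFN-β (SE 0.43) while *Zfhx2* fell by 0.68 on the log2 scale (SE 0.13), and this was 1 pair of 65 called in opposite ways (1.54%, where 8.22% of all opposite-strand pairs were). *Zfhx2os* entered through the stimulated groups and its counts are uncertain, so this pair is a description and not a tested result. A block for the replicate letters made the count 3, adding *Junos* (-0.89) against *Jun* (0.24, edgeR adjusted p = 0.00187) and *Oip5os1* (-0.32) against *Oip5* (0.43, adjusted p = 0.0475). Both genes passed in the same direction in 11 pairs (16.9%, where 15.8% did), and in 13 with the block. The 11 include *Anxa11os*, *Peak1os* and *Slfn5os*, which entered through the stimulated groups, so this count and the correlations below are a description. The log2 fold changes had a Pearson r of 0.56 and a Spearman coefficient of 0.47 over the 65 pairs, and of 0.46 and 0.41 over 62 pairs without those of *Ptgs2* and *Il1b*. Over all 12417 pairs they were 0.26 and 0.20, and over the 1517 pairs with start sites within 1000 bases 0.59 and 0.51. Of those 1517 pairs, 22.9% passed in the same direction and 3.69% in opposite directions.

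Of the 8 genes that fell with IFN-β, *Junos* fell by 0.89 on the log2 scale (SE 0.10, edgeR adjusted p = 5.5e-05), beside a log2 fold change of 0.24 (SE 0.20) for *Jun*, which passed only with the replicate letters as a block (adjusted p = 0.349 without and 0.00187 with it), and the ratio fell by 1.13 (SE 0.24, limma adjusted p = 0.004). *Oip5os1* fell by 0.32 (SE 0.07) and its ratio to *Oip5* by 0.74 (SE 0.18). *Slc7a6os*, which encodes a nuclear import factor of RNA polymerase II, changed by -0.45 (SE 0.10) beside -1.25 (SE 0.21) for *Slc7a6*, an amino acid transporter gene. *Ttc39aos1* had a log2 fold change of -1.52 (SE 0.44), and of -1.13 without IFN-β library A. The falls of *Rab26os* (-1.02, SE 0.33) and *Tmem147os* (-0.87, SE 0.31) did not pass in 4 and in 6 of the 9 fits that left out a library, with log2 fold changes of -1.02 to -0.72 and -1.01 to -0.64. *Bach2os* (-0.96, adjusted p = 0.0545) and *Tnfsf13os* (-0.52, adjusted p = 0.141) passed only with the replicate letters as a block (adjusted p = 0.0318 and 0.029). For *Bach2os* this is a description, under the limit of the rule given above.

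The ratio to the partner changed with IFN-β in 12 of the 65 pairs, 7 higher and 5 lower, where 38.2% of all opposite-strand pairs changed. Blocking on the replicate letters gave 19. The 12 were led by *Peak1os*, *Zfhx2os* (2.36, SE 0.51), *Anxa11os* (1.89, SE 0.39) and *Plxna4os1* upward, and by *Ptgs2os2* (-1.42, SE 0.17), *Lrrc75aos2* (-1.15, SE 0.30) and *Junos* downward. Among the 7 higher, *Peak1os*, *Zfhx2os* and *Anxa11os* entered through the stimulated groups, so their ratio changes are a description. *Ptgs2os2* rose with IFN-β by 0.83 (log2, SE 0.19) beside 2.23 (SE 0.17) for *Ptgs2*. The ratio of *Tnfsf13os* to *Tnfsf13* fell by 0.76 (SE 0.27, limma adjusted p = 0.0442), a call lost in 6 of the 9 fits that left out a library (-0.84 to -0.62).

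IFN-β-treated and LPS-activated DCs were then compared directly. Of the 70 genes, 22 differed, 11 higher with IFN-β and 11 lower, against 49.1% of all tested genes, 25.8% higher and 23.3% lower. Without the genes that entered through the groups in which they were high, 19 of 62 differed, 11 higher and 8 lower. Library size only gave 19 higher and 6 lower, with a shift of the median of all genes by 0.27. Lower with IFN-β were the genes of the *Ptgs2* and *Il1b* loci, with -6.11 (log2, SE 0.21) for *Il1bos*, -4.35 (SE 0.15) for *Ptgs2os2* and, for *Ptgs2os*, 3 counts in the IFN-β group against 595 with LPS, an LPS to IFN-β ratio of 243 (95% exact interval 82.7 to 1180). Higher with IFN-β were *Dnmt3aos* by 3.61 (SE 0.32, edgeR adjusted p = 6.6e-06), *Bach2os* by 2.61 (SE 0.62), *Tnfsf13os* by 2.20 (SE 0.36) and *Junos* by 1.56 (SE 0.11).

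The partners of these 4 differed in the same direction, *Dnmt3a* by 0.47 (SE 0.07), *Bach2* by 1.46 (SE 0.51), *Tnfsf13* by 1.84 (SE 0.22) and *Jun* by 1.75 (SE 0.21). The call of *Bach2* was lost without LPS library A (1.07) or C (1.32) or IFN-β library A (1.51) or B (1.27). *Peak1os* was lower with IFN-β than with LPS by a log2 difference of -0.92 (SE 0.38), with an adjusted p of 0.0677, and of 0.0131 with the replicate letters as a block, while *Peak1* was higher by 0.95 (SE 0.12). For *Anxa11os* (-0.18, SE 0.34), *Lrrc55os* (-0.34, SE 0.40) and *Ctcflos* (0.61, SE 0.29) no difference between the stimuli passed at these counts.

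Promoter sequence was at hand in RefSeq for 44 of the 70 genes and 52 of the 67 partners, as 250 bases before to 50 bases after the start. The interferon-stimulated response element GAAANNGAA, searched on both strands, was in 5 of the 44 (11.4%), where 8.56% of 32851 promoters held it, and in 3 of the 52 partners (5.77%). The 5 genes were *Ptgs2os2*, *Peak1os*, *Hk1os*, *Rab10os* and *Zmiz1os1*. Of these, *Ptgs2os2* and *Hk1os* rose with IFN-β (0.83 and 0.81 on the log2 scale), *Peak1os* had a log2 fold change of 3.40, *Rab10os* (0.22) and *Zmiz1os1* (0.17) did not pass, and for *Rab10os* the adjusted p was 0.0261 with a block for the letters. The rise of *Hk1os* with IFN-β did not pass without unstimulated library B (0.69) or C (0.72) or IFN-β library A (0.71). The NF-κB core GGANTTTCC was in none of the 44 genes or 52 partners and in 1.25% of all promoters, and TATAAA was in 5 genes (11.4%), 5 partners (9.62%) and 13.6% of all promoters. A gene was counted when any of its promoters matched, and *Junos* had 7, while the background counts single promoters. The shares are therefore in unlike units. A match describes letters in a window and no more.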

How the data were processed

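The authors trimmed reads, mapped them to the mouse genome (mm10, GRCm38) with STAR, and deposited raw counts per gene on GENCODE M20. The submitters' processing notes name Trim Galore 0.6.0 and STAR 2.7.8a. The strand setting is not given in the sources used here and was read from the counts. Counts covered all 9 libraries, and no column was left out. Here genes were kept by edgeR's filterByExpr (16260 of 55471), scaled by TMM and tested with edgeR 4.0.16 quasi-likelihood F-tests in R 4.3.3, with 1 term per condition over all libraries, Benjamini-Hochberg adjustment over all tested genes and a threshold of 0.05. CPM uses the TMM-scaled library size. The standard error is the absolute log2 fold change over the square root of F. Ratios were log2 of (gene + 0.5)/(partner + 0.5) counts, tested with limma 3.58.1 over 12417 opposite-strand pairs. Positions came from GENCODE M21 on GRCm38. The scripts were tested on simulated data. Intervals and floors cover counting error only. Nothing states that libraries came from separate mice, so p-values measure the spread between these libraries, which may be technical.

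Libraries with the same letter deviated together from their group means (r 0.134 to 0.546 across genes in all 9 pairs), so the letters pair the samples. Blocked values are printed for some of the calls they change, and for other ratios only the numbers of calls are given. With IFN-β the ratios of *Brip1os*, *Rab26os* and *Rab10os*, among others, passed only with the block. The genes, lists and tests were chosen with earlier results of these data known. Named were the genes past the threshold with the largest changes (up to 14 per stimulus), pairs with opposite calls, the 8 largest ratio changes per stimulus, the 3 highest levels per kb and those at the edge of the rule. *Zeb2os*, *Pigbos1*, *Arhgap27os1*, *Arhgap27os2*, *Bloc1s6os*, *Slc36a3os*, *Rab10os*, *Zmiz1os1*, *Erich2os* and the low-level genes named with the strand check were added after their values were seen. Alternatives were DESeq2 1.42.0, other scalings, filters, member rules and thresholds, the replicate block, 2 counts added to ratios, and each library left out.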

Additional observations from a re-analysis of the deposited data

Results flagged for a closer look

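*Dnmt3aos* was flagged because the stimuli moved it in opposite directions. All 3 LPS libraries (0.743 ± 0.16 CPM, SD, n = 3) lay below and all 3 IFN-β libraries (9.15 ± 2.57 CPM) above the unstimulated ones (3.45 ± 1.17 CPM). The IFN-β minus LPS difference was 3.61 on the log2 scale (SE 0.32, edgeR adjusted p = 6.6e-06). This contrast sets the stimulated groups against each other, but its SE and adjusted p use a spread estimated over all 9 libraries. The same difference was 0.47 (SE 0.07) for *Dnmt3a*. No other of the 70 genes passed in both comparisons with opposite signs.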

How the results depend on the processing

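Of the 136 gene and ratio results named, recomputed under up to 16 settings for gene tests and 13 for ratios, 1950 of 2054 values kept direction and side of the threshold, 98 kept direction but no longer passed, and 6 turned. All 6 came from library size only: log2 fold changes of -0.26 for *Anxa11*, -0.16 for *Brip1os*, -0.30 for *Dnmt3a* and -0.06 for *Rsf1* with LPS, and of -0.02 for *Ino80d* and -0.09 for *Rsf1* with IFN-β. The number of genes called was 59 with LPS and 33 with IFN-β under that scaling. With at least 10 counts in every library, which leaves 37 genes, it was 17 with LPS, 11 with IFN-β and 10 between the stimuli. With 50 counts in at least 3 libraries, which leaves 29, it was 17, 12 and 14, and calling only changes of 1 or more in absolute log2 terms it was 10 with IFN-β and 13 between the stimuli. These 3 settings lower the counts by construction. With the replicate block the ratio count with IFN-β rose from 12 to 19, and the block added *Plet1os*, *Prox2os* and *Rsf1os2* with LPS (34 genes), *Bach2os*, *Fbxl12os*, *Plet1os*, *Rab10os*, *Tnfsf13os* and *Tomm6os* with IFN-β (26) and *Peak1os* and *Tmem51os1* between the stimuli (24). All genes called without the block remained, and it changed no other call of a gene among the 70. Leaving out 1 library gave 26 to 34 genes with LPS, 16 to 21 with IFN-β, 16 to 19 between the stimuli, and 24 to 30 and 10 to 14 ratios. Counting only genes that reached 10 counts in both unstimulated and stimulated libraries (62), a choice made after seeing the data, gave 13 with IFN-β. A mean under 100 counts in every group was seen in 54 of the 70, and the part of depth in the number of calls was not tested.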

Other observations

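The 70 genes were a small share of the scarce transcripts tested. Of 522 tested genes of the annotation class antisense, 54.2% passed with LPS (176 higher, 107 lower) and 30.1% with IFN-β (114 higher, 43 lower), and of 473 lincRNA genes 61.3% and 31.9% passed. For protein-coding genes the shares were 73.6% and 53.0%. The antisense class had a median log2 fold change of 0.17 with LPS and 0.12 with IFN-β, where the 54 opposite-strand genes of that class had -0.39 and -0.04. The difference between these medians was not tested.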
